A study of Homo sapiens with 4 samples.

Results

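The HOX gene clusters were examined as the BRPF3 peaks that overlap 4 windows of the human genome, in hg19 coordinates: HOXA at chr7:27130000-27255000, HOXB at chr17:46600000-46810000, HOXC at chr12:54330000-54455000 and HOXD at chr2:176940000-177060000. A peak was a member when it shared at least 1 bp with a window, whatever its score. This gave 36 of 13160 peaks in asynchronous cells, 33 of 11532 in mimosine cells and 37 of 13431 in hydroxyurea (HU) cells, which merged by overlap into 37 of 14039 regions. The windows hold the 39 HOX genes and span 580 kb. Peaks were mapped by chromatin immunoprecipitation and sequencing (ChIP-seq) in RKO, an established human colon carcinoma line grown in medium with 10% serum. The asynchronous library came from cells with no treatment, and the mimosine library from cells kept in 0.5 mM mimosine for 22 h. The HU library came from cells given the same mimosine treatment, released for 3 h and then exposed to 3 mM hydroxyurea for 1 h 30 min. A rabbit IgG library from that last condition served as the control of all 3 lists, and a homemade rabbit antibody to BRPF3 was used in the other libraries. With 1 library per condition there is no replicate, and what differs between lists is described without a test. Read numbers are unknown, and a peak absent from a list may lie under the calling threshold.

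BRPF3 is a scaffold subunit of histone acetyltransferase complexes of the MYST family, in which it holds the catalytic subunit on chromatin. HOX genes encode homeodomain transcription factors that give cells their position along the body axis. In mammals they lie in 4 clusters, whose gene order follows the order in which the genes are used along that axis. Trithorax proteins keep them active and Polycomb proteins keep them silent, and adult tissues, the gut included, retain patterns of HOX expression. Mimosine, a plant amino acid that chelates iron, holds cells near the G1/S boundary, and hydroxyurea lowers nucleotide pools so that forks stall.

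In the RefSeq gene table (GRCh38), HOXA holds 11 HOX genes, with HOXA13 at the high-coordinate end, and HOXB holds 10, ordered from HOXB1 to HOXB13 with rising coordinate. HOXC and HOXD hold 9 HOX genes each and run the other way, with HOXC13 and HOXD13 at the low end. The same stretches hold noncoding genes such as HOTAIRM1, HOTAIR and HAGLR, and microRNA genes that include MIR10A, MIR10B, MIR196A1, MIR196A2 and MIR196B. That table is in another build than the peaks, so gene order was used and no peak was assigned to a gene.

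Promoter sequence was used to describe base composition at the HOX genes for which a promoter was at hand. Of the 39 HOX genes, 20 have a promoter in the RefSeq table used here, with 26 distinct starts, since HOXC4 and HOXC5 share one: 9 genes in HOXA, 1 in HOXB, 2 in HOXC and 8 in HOXD. Over the 250 bases before the start, the letters CG (the same on both strands) occurred a median of 19.5 times in these promoters, against 11 times over 35116 promoters of the table. At least 10 CG were present in 20 of the 26 (76.9%), and in 52.2% of all promoters. By cluster the median was 19 in HOXA (16 starts, several of them of HOXA3) and 22 in HOXD (8 starts). The start shared by HOXC4 and HOXC5 had 14, and the only HOXB promoter had 7, so HOXB and HOXC are hardly described. The 4 sequences below are those with the most and the fewest CG in HOXA and in HOXD, the clusters with the most matched genes, and show how far CG content varies within a cluster. They are printed 5′ to 3′ in GRCh38 coordinates, with CG in capitals. They were not placed against the peaks, which are in hg19. HOXA13, a gene of distal limb and hindgut development, is on the minus strand at chr7:27200092-27200341 and has 40 CG. One of several starts of HOXA3, which acts in the pharyngeal arches, is on the minus strand at chr7:27119596-27119845 and has 0 CG. HOXD1 is on the plus strand at chr2:176188418-176188667 and has 31 CG. HOXD4 is on the plus strand at chr2:176151300-176151549 and has 4 CG.
HOXA13: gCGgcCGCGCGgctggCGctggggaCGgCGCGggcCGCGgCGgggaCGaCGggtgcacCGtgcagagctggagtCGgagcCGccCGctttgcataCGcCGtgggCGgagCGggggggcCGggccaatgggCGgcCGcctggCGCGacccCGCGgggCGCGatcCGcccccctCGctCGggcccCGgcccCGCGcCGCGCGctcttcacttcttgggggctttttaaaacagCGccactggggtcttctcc
HOXA3: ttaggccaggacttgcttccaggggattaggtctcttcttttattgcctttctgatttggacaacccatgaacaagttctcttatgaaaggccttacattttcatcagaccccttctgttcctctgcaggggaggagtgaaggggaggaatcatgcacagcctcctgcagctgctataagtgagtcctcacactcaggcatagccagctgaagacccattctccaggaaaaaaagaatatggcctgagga
HOXD1: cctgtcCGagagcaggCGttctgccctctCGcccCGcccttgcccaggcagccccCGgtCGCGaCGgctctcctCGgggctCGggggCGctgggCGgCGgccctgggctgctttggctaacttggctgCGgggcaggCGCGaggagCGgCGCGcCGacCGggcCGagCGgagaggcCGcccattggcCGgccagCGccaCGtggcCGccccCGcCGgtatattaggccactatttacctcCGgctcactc
HOXD4: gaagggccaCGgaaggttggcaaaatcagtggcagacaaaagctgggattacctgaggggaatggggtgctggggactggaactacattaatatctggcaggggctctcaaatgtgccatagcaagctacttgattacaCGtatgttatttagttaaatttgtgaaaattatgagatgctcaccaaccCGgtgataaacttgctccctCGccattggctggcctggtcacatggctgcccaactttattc

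The clusters were dense in BRPF3 peaks, and with all peaks counted HOXA had the highest coverage of the 4. Peaks covered 32.9% of the HOXA window in asynchronous cells, 23.9% in mimosine cells and 32.6% in HU cells. The HOXB window was covered over 18.9%, 14.1% and 19.3% in the same order. Coverage was lower in HOXC (13.7%, 7.53% and 14.3%) and in HOXD (12.03%, 5.12% and 12.2%). A single peak wider than 10 kb carried much of HOXA: without it, an alternative chosen after seeing the data, coverage was 20.9%, 12.6% and 20.4%, and the mimosine value was then below that of HOXB. Over all 4 windows the mimosine list covered 12.9%, against 19.4% in the asynchronous and 19.6% in the HU list. The covered length in mimosine cells was 66.7% of that in asynchronous cells, near the 62.7% of the whole lists.

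For scale, chromosomes 1 to 22 and X were tiled with windows of the same lengths. Of 24240 windows of 125 kb, 69.5% held no asynchronous peak, and the mean coverage was 1.29%. As much coverage as HOXA had in asynchronous cells was reached by 9 of those windows (0.0371%), and the figures for mimosine and HU cells were 5 and 13. For HOXB, 25 of 14423 windows of 210 kb reached its asynchronous coverage. HOXC was less extreme, with 209 of 24240 windows (0.862%) at or above its asynchronous coverage. HOXD was the least, with 327 of 25250 windows of 120 kb (1.30%), and in the mimosine list 989 (3.92%). By number of peaks, 66 windows (0.261%) held at least as many mimosine peaks as the 7 of HOXD. Those 7 lay in 6 regions, and 4 of them scored 100 or more. The tiles lay at fixed steps along each chromosome and were not matched to the HOX windows on gene content. Neighbouring windows are not independent, and these shares are a description.

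**Figure D1:**
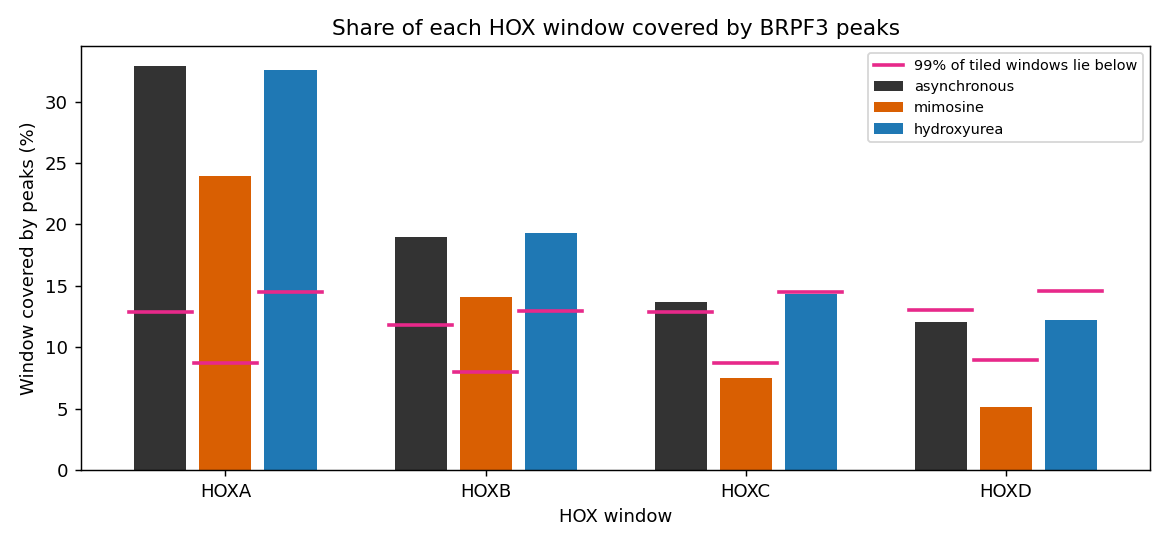
Percent of each HOX window covered by BRPF3 peaks (vertical axis) in each of the 3 lists, 1 library per bar. The pink line marks the coverage below which 99% of tiled windows of the same length lie. HOXA and HOXB stand above it in all lists, HOXC only in asynchronous cells, and HOXD in none.

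Few peaks lay just outside the windows. In the 100 kb on either side of each window, each list held at most 1 peak per side, and peaks covered at most 2.49% of a flank. Both flanks of HOXC and the low-coordinate flanks of HOXA and HOXB held none in any list. Nearest the edges, the last HOXB peak of asynchronous cells ended 3.49 kb inside the window, and the nearest one outside HOXA began 20.1 kb beyond it. Within the clusters the median gap between neighbouring asynchronous peaks was 4.25 kb in HOXA, 8.37 kb in HOXB, 8.48 kb in HOXC and 13.5 kb in HOXD, against 60.6 kb over the whole list. HOXB had the longest empty stretch, 45.1 kb in asynchronous cells at chr17:46749901-46794953. In mimosine cells this stretch measured 70.8 kb, because the small peak at its low end was not called. HOXB13, the last gene of that cluster, is known to lie apart from the other HOXB genes.

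**Figure D2:**
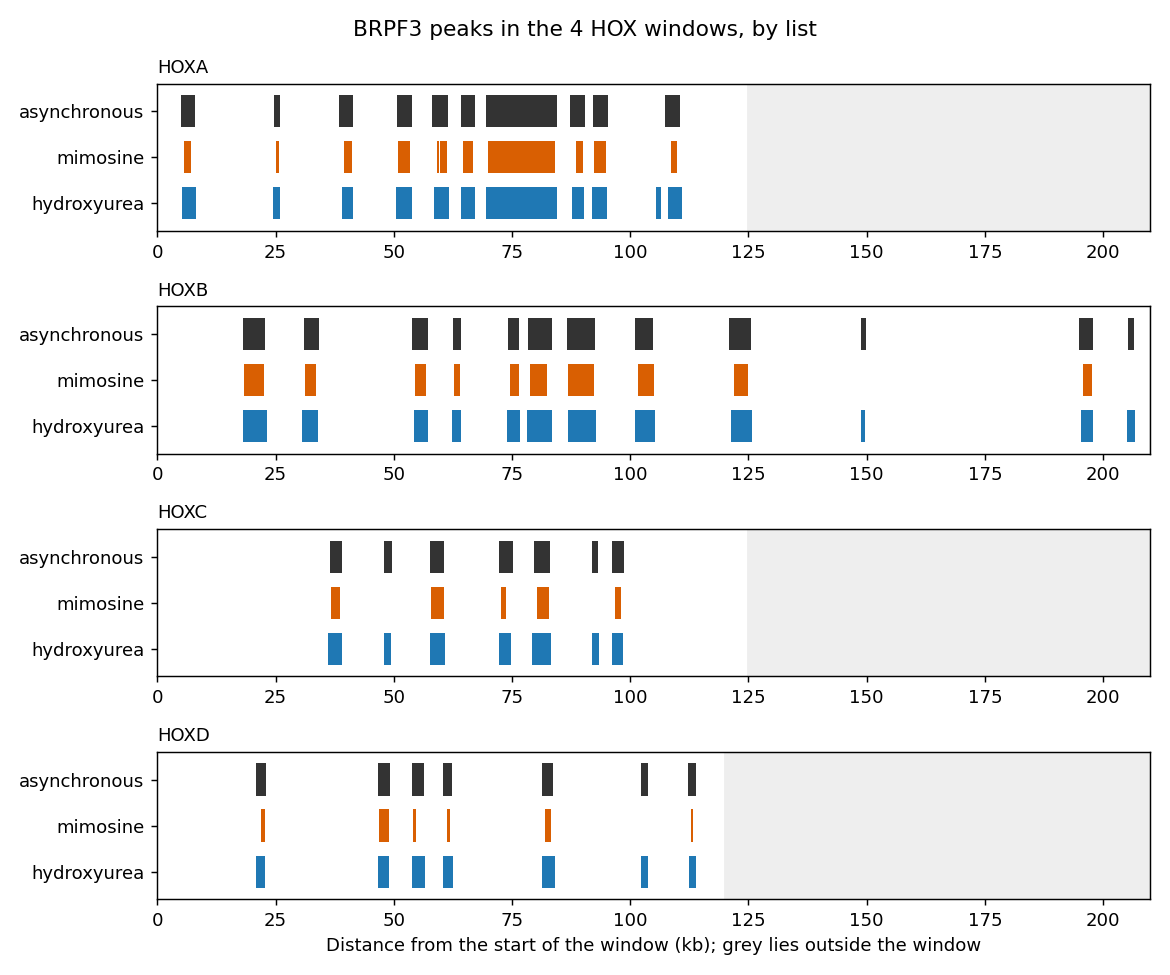
Every BRPF3 peak in the 4 HOX windows, drawn to scale as a block at its distance in kb from the start of the window, with 1 row per list. The 3 lists hold peaks at nearly the same places, the mimosine blocks are narrower, and the wide block in the middle of HOXA is present in all 3.

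Most HOX regions were called in every condition. A peak in each of the 3 lists was held by 31 of the 37 regions (83.8%, exact 95% interval 68.0 to 93.8%). The background over all 14039 regions was 71.5%, which lies inside that interval. Another 5 lacked a mimosine peak but had one in both other lists (13.5%, background 14.7%), and 1 was called in HU cells alone (2.70%, background 8.08%). None was found in asynchronous cells alone, in mimosine cells alone or in another pair of lists, which for 0 of 37 allows a share of up to 9.49% each by the exact interval. All 36 asynchronous peaks overlapped an HU peak (background 94.5%), and 31 of them a mimosine peak (86.1%, background 77.4%). All 33 mimosine peaks overlapped an asynchronous peak (background 98.9%) and an HU peak (background 99.5%). Of the 37 HU peaks, 36 overlapped an asynchronous peak (97.3%, background 91.2%) and 31 a mimosine peak (83.8%, background 75.4%). The intervals cover counting error only, and neighbouring regions are not independent. The backgrounds are over regions and peaks of all scores, and the part of score in these shares was not tested.

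The 5 regions without a mimosine peak were spread over HOXB, HOXC and HOXD, and all were small. In HOXB they were chr17:46748691-46749900, with a score of 62.6 in asynchronous and 58.9 in HU cells, and chr17:46804980-46806631, with 111 and 54.2. In HOXC they were chr12:54377888-54379624, with 139 and 137, and chr12:54421912-54423383, with 87.2 and 86.3. In HOXD the missing region was chr2:177042202-177043707, with 199 and 118. The score is the authors' own value per peak, read here as 10 times the negative base-10 logarithm of the peak caller's p-value. These scores sat at the low end of the HOX peaks: in asynchronous cells the HOX peaks with a mimosine partner scored 180 to 3100, so the groups overlapped in 1 pair of peaks. The kept peak of 180 was HOXB region chr17:46662298-46664315, whose mimosine peak scored 62.5. Among all asynchronous peaks scoring from 62.6 to 199, 27.1% of 2549 had a mimosine peak, and the HOX windows held 1 of 6. That score range was set from the missing peaks themselves, so the last comparison is a description.

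In the HU list the order was complete. The 6 HOX peaks with no mimosine partner scored 54.2 to 137, and those with one scored 144 or more. The sixth was the HU-only region at the HOXA13 end of HOXA, chr7:27235550-27236530, which was 981 bp wide with a score of 54.9. It lay less than 1 kb from the asynchronous peak of the next region, chr7:27237427-27240852, and joined it when peaks within 1 kb were merged. No HOX region that was missing from a list therefore had a high score in another.

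HOXA held the broadest BRPF3 region of the clusters. At chr7:27199470-27214606, in the middle of the window, the asynchronous peak was 15030 bp wide, the mimosine peak 14199 bp and the HU peak 15137 bp. It was the only HOX peak wider than 10 kb in each list (backgrounds 0.866%, 0.251% and 1.14%), and also the only one wider than 8 kb. In the mimosine list just 9 of 11532 peaks were as wide, against 30 of 13160 in the asynchronous and 46 of 13431 in the HU list. Its score was 3100 in all 3 lists, a value that many of the strongest peaks share and that does not resolve their order. Its mimosine peak was 0.945 times as wide as the asynchronous peak, the highest ratio among the HOX regions. Its mimosine edges lay 420 and 411 bp inside the asynchronous ones, against medians of 386 and 389 bp outside the windows. The wide peaks were therefore nearly equal in proportion, while the edges moved about as far as elsewhere.

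HOXB held most of the other peaks of top score. At chr17:46618212-46623149, near the HOXB1 end, the score was 3100 in all 3 lists and the asynchronous, mimosine and HU peaks were 4551, 4194 and 4938 bp wide. The widest HOXB region, chr17:46686558-46692697, measured 5981, 5479 and 5922 bp, with scores of 3100, 2731 and 3100. At chr17:46700906-46705247 the widths were 3860, 3463 and 4260 bp, and the mimosine score was 1841 against 3100 in the other lists. These 3 regions had mimosine peaks 0.922, 0.916 and 0.897 times as wide as the asynchronous ones, so the strongest HOXB sites kept most of their width. One more HOX peak reached 3100 in asynchronous cells only: HOXA region chr7:27180563-27183935 scored 753 in mimosine and 2152 in HU cells. In all, that score was reached by 5 of 36 peaks in the asynchronous list, 2 of 33 in the mimosine list and 4 of 37 in the HU list, with backgrounds of 7.45%, 2.91% and 7.25%.

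HOXC and HOXD held no peak of that kind. The highest asynchronous and HU scores of HOXC were at chr12:54387685-54390797, where the peaks scored 1521, 633 and 1280 in asynchronous, mimosine and HU cells. The highest mimosine score of HOXC, 652, was at chr12:54366033-54369079. The widest HOXC region was chr12:54409328-54413168, with peaks of 3327, 2541 and 3841 bp. In HOXD the highest score of every list was at chr2:177021412-177023992, with 1387, 347 and 892, and the widest region was chr2:176993810-176996710. The median within-list rank percentile of HOX peaks, where 50 is the middle of a list, was 71.5 in the asynchronous list, 56.3 in the mimosine list and 54.02 in the HU list. Lists of unequal length make these 3 values unsuited to showing a change.

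**Figure D3:**
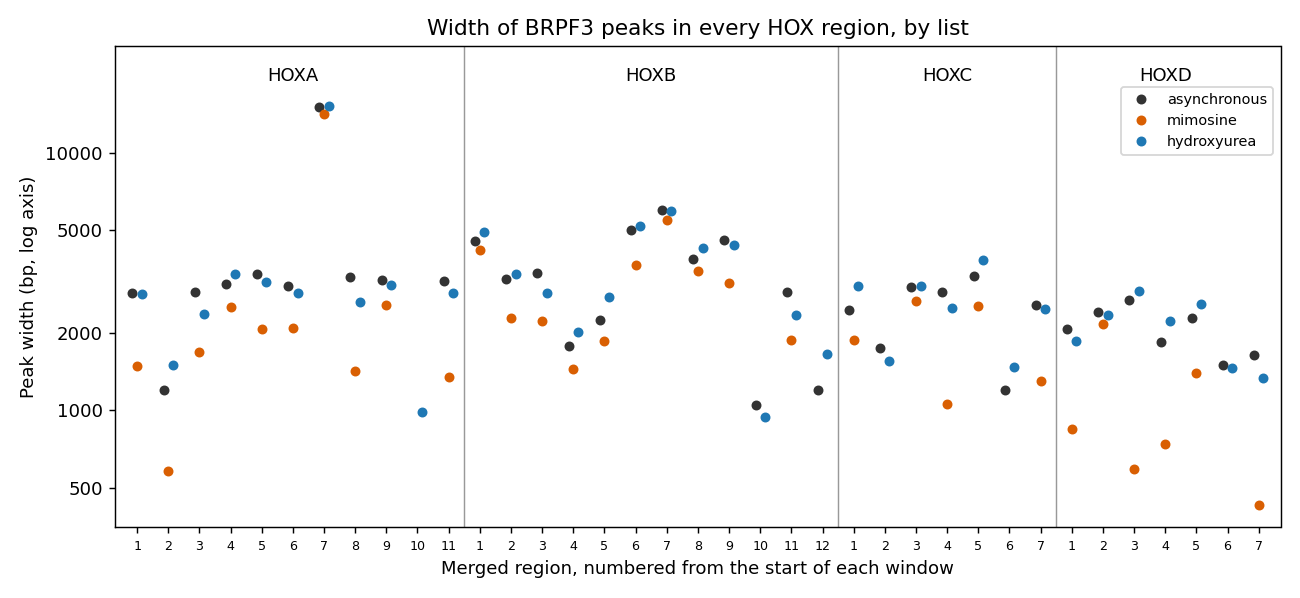
Width in bp (log axis) of the BRPF3 peak or peaks in each of the 37 HOX regions, by cluster and list; a missing point means that no peak was called, and the widths of 2 mimosine peaks were summed in HOXA region 5 and HOXD region 2. Mimosine points lie below the others in each region that has one, and 4 of the 6 HOXD mimosine points lie at 843 bp or lower, beside 1 in HOXA.

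Mimosine peaks were the narrower ones at the shared HOX sites, and the difference was largest in HOXD. In the 29 HOX regions with exactly 1 peak per list, the mimosine peak was narrower than the asynchronous peak in 29 (background 98.2%) and narrower than the HU peak in 29 (background 99.9%). The median ratio of mimosine to asynchronous width was 0.679, close to the 0.694 of the 8624 such regions outside the windows. The clusters differed around that value, with medians of 0.770 in HOXB (10 regions), 0.763 in HOXC (5 regions), 0.585 in HOXA (9 regions) and 0.402 in HOXD (5 regions). Their median asynchronous widths were 3639.5, 2870, 3087 and 2073 bp in the same order. The part of starting width in the ratios was not tested. In the 5 HOXD regions the ratios ran from 0.221 to 0.607. All lay below those of HOXB, which ran from 0.646 to 0.922. A HOXD region with 2 mimosine peaks is left out of this set. Its ratio by summed width, 0.890, lay within the range of HOXB.

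HOXD shows the narrowing site by site. At chr2:176993810-176996710 the asynchronous peak was 2689 bp wide, the mimosine peak 593 bp and the HU peak 2899 bp. At chr2:177000395-177002610 the widths were 1835, 738 and 2216 bp, and at chr2:177052265-177053902, at the HOXD1 end, they were 1638, 426 and 1334 bp. The mimosine peaks of these sites scored 69.8, 143 and 54.2 in that order, where the lowest score in the lists is 50. The mimosine peak was under 50% of the asynchronous width in 4 of 5 HOXD regions, in 3 of 9 HOXA regions, in 1 of 5 HOXC regions and in 0 of 10 HOXB regions (background 14.9%). The exception in HOXD was chr2:177021412-177023992, with 2286, 1388 and 2581 bp. In the HOX regions with 1 peak per list, mimosine peaks under 50% of the asynchronous width scored from 54.2 to 159. The median over the whole mimosine list was 277. Mimosine peaks of 62.5 in HOXB and 107 in HOXC lay in that score range too, with width ratios of 0.809 and 0.764. The part of the mimosine score in the narrowing was not tested. Another HOXD region, chr2:176986722-176989158, was split into 2 mimosine peaks that added up to 2151 bp, against 2416 bp in asynchronous cells. HOXA had the only other split, at chr7:27188085-27191630, so 2 of 31 regions of all 3 lists were split (background 11.9%).

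Regions elsewhere within the same wide range of scores were mostly less narrow than those of HOXD. Each range ran from the lowest to the highest score of a cluster. Regions were not matched on score, so the part of score in the cluster differences was not tested. The HOXD asynchronous scores ran from 211 to 1387, and the 5691 regions outside the windows with scores in that range had a median ratio of 0.666 (interquartile range 0.547 to 0.779). A ratio at or below the HOXD median of 0.402 was found in 7.26% of them. For HOXA the same comparison gave 0.585 against 0.716 in 6961 regions, while HOXB and HOXC lay on the other side, with 0.770 against 0.699 in 8056 regions and 0.763 against 0.705 in 3522 regions. Only 5 HOXD regions enter, in 1 library per condition, and no test of the difference between clusters was made.

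Mimosine peaks lay inside the asynchronous ones. This held for 27 of 29 HOX regions (93.1%, background 89.8%), and the 2 exceptions were in HOXB. The mimosine peak began a median of 466 bp after and ended a median of 392 bp before the asynchronous peak, against 386 and 389 bp outside the windows. Both edges therefore moved inward in most HOX regions. Some sites were lopsided: at chr2:176993810-176996710 the low-coordinate edge moved by 211 bp and the other by 1885 bp, and at chr7:27217187-27220487 by 1427 and 453 bp. As base pairs, mimosine peaks covered 72.8% of the asynchronous peaks of HOXA, 73.6% of HOXB, 54.8% of HOXC and 42.5% of HOXD, against 62.0% of the whole asynchronous list. Without the peak wider than 10 kb the HOXA value was 60.3%. The value of the whole list includes peaks of that width and was not computed without them.

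**Figure D4:**
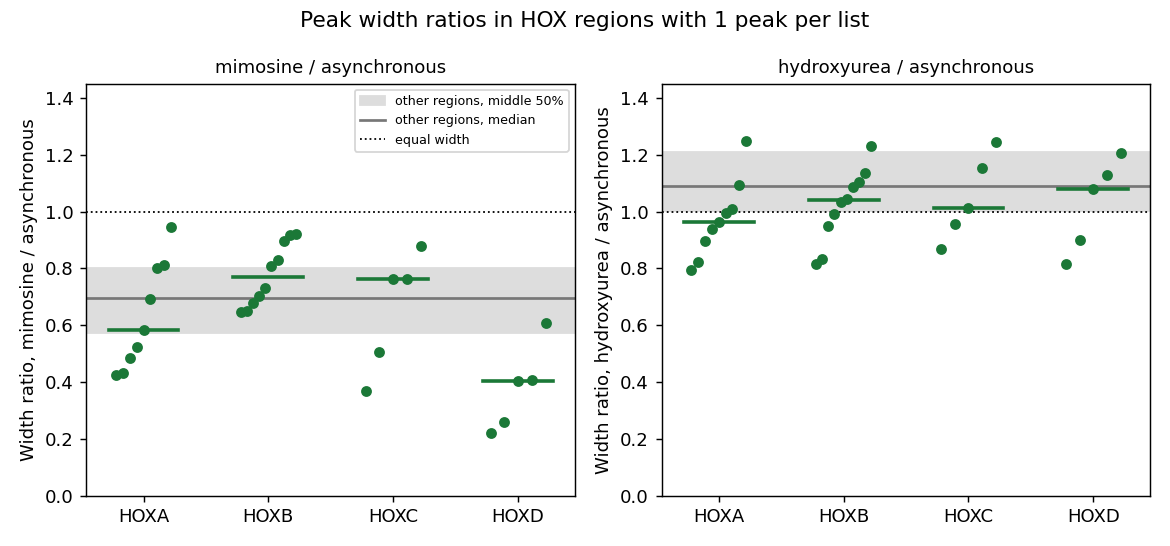
Width ratio of mimosine to asynchronous peaks (left) and of HU to asynchronous peaks (right) in the 29 HOX regions with 1 peak per list, each point a region and each green bar a cluster median. Grey shows the median and middle 50% of the 8624 such regions outside the windows. The HOXD points on the left lie at 0.607 or lower, and the HOXA, HOXB, HOXC and HOXD medians on the right lie between 0.961 and 1.08.

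HU and asynchronous peaks were of similar width at the HOX clusters, while elsewhere HU peaks were mostly the wider. The HU peak was wider than the asynchronous peak in 15 of 29 HOX regions (51.7%, exact 95% interval 32.5 to 70.6%), where the background was 75.1%. The median ratio of HU to asynchronous width was 1.01 (interquartile range 0.898 to 1.10), against 1.09 (1.00 to 1.21) outside the windows. By asynchronous score the HOX regions stood at a median rank percentile of 70.01, against 49.9 outside. They were not compared with regions of like asynchronous score or width, so the part of these in the difference was not tested. By cluster it was 0.961 in HOXA, 1.04 in HOXB, 1.01 in HOXC and 1.08 in HOXD. In HOXA 3 of 9 peaks were wider in HU cells, in HOXB 6 of 10, and in HOXC and HOXD 3 of 5 each. Among these 29 regions the largest HU to asynchronous ratio, 1.25, was at chr7:27154553-27156052, where the asynchronous peak had 1201 bp and the HU peak 1500 bp. The smallest, 0.795, was at chr7:27217187-27220487, with 3301 and 2625 bp. Of the regions without a mimosine peak, chr17:46804980-46806631 had a higher ratio, 1.39, with 1192 and 1652 bp.

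Score ranks were compared among the 8653 regions of the genome with 1 peak per list, a set of the same size in each list, with scores above 3100 set to 3100. HOX regions stood at a median percentile of 70.01 in the asynchronous list, 59.1 in the mimosine list and 58.8 in the HU list. The HU rank was below the asynchronous rank in 21 of 29 HOX regions (72.4%, 52.8 to 87.3%, background 48.2%), and 4 more were at 3100 in both lists and counted as neither. Those 21 comprised 8 of 9 in HOXA, 5 of 5 in HOXC, 5 of 5 in HOXD and 3 of 10 in HOXB. The mimosine rank was below the asynchronous rank in 22 of 29 (75.9%, 56.5 to 89.7%, background 49.1%): 7 in HOXA, 6 in HOXB, 4 in HOXC and 5 in HOXD. These 2 comparisons share the asynchronous library, so they are not independent of each other. Both backgrounds are over regions of all asynchronous ranks, while the HOX regions began at a median percentile of 70.01. HOX regions were not compared with others of like asynchronous rank, so the part of starting rank in both shares was not tested.

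The median ranks show where the clusters parted. HOXD stood at 53.9 in the asynchronous list, 17.1 in the mimosine list and 33.1 in the HU list, and HOXA at 85.6, 56.2 and 72.2. HOXC stood at 63.6, 46.5 and 41.5. HOXB stayed high, at 78.8, 71.2 and 78.8. At single sites, chr2:176993810-176996710 had percentiles of 53.9, 7.29 and 33.1, and chr7:27217187-27220487 had 40.7, 5.26 and 14.9. The HOXB region chr17:46662298-46664315 went the other way in HU cells, from 5.89 in asynchronous to 24.7, with a score of 180 against 392. The read depth of the lists, which bears on score and width, is unknown, and its part in these differences was not tested.

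**Figure D5:**
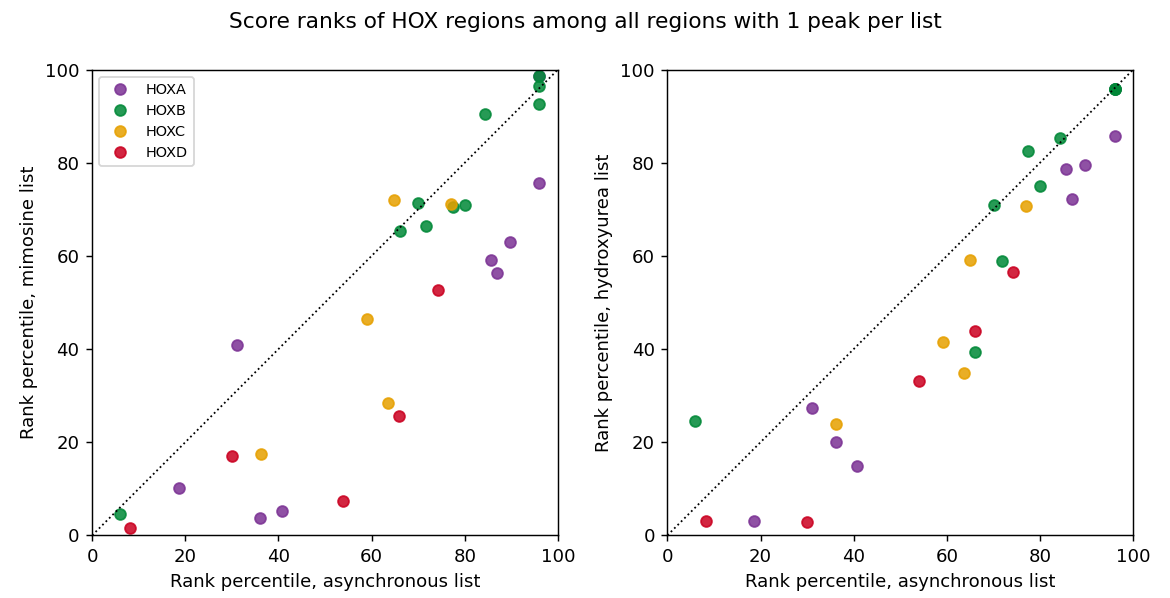
Rank percentile by score of the 29 HOX regions among the 8653 regions with 1 peak per list, in asynchronous cells (horizontal axis) against mimosine (left) and HU cells (right), with a dotted line of equal rank. HOXD points lie below the line in both panels and HOXB points lie near it, apart from a few; regions at 3100 in both lists overlap at the upper right.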

How the data were processed

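BRPF3 was mapped by ChIP-seq in 3 libraries, with 1 IgG control library, and the libraries were grouped by their titles. The submitters' processing notes list MACS 1.4.0, a peak caller, beside the aligner Bowtie 0.12.8, bedtools and SAMtools, and give no order or settings. The deposited score of each peak was read as 10 times the negative base-10 logarithm of a p-value, because its minimum is 50 and the lists have the layout of that caller. By its definition it depends on read depth, which is unknown. The deposited lists have no header, and their starts, counted from 0, are printed counted from 1. One description field names other BRPF proteins, and the titles and antibody field were followed. The notes name hg18 and hg19, and peaks on chromosome Y in 2 lists lie past its end in hg18 and GRCh38, so hg19 was used.

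Peaks of different lists that shared 1 bp were merged. Each condition had 1 library, so no test was made. Shares have exact Clopper-Pearson 95% intervals. The overlap, merging and width calculations were tested on a copy of the asynchronous list with peaks removed and trimmed by known amounts. The tools were Python 3.11.15 with NumPy 2.4.6, pandas 2.3.3, matplotlib 3.10.9 and SciPy 1.17.1. The members and lists were chosen with earlier results of these data known. The text names, per cluster, the widest region, the region of highest score in each list and the regions missing from a list, and gives others as examples chosen after their values were seen. Ranks among regions with 1 peak per list and the comparisons within score ranges were added after values were seen. Alternatives were windows widened by 50 kb, membership by peak centre, a minimum score of 100, top peaks in equal numbers, partners by 50% reciprocal overlap or by centres within 1 kb, merging within 1 kb, leaving out or redefining broad peaks, summed widths, and scores held at 3100.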

Additional observations from a re-analysis of the deposited data

How the results depend on the processing

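No paired analysis was possible because each condition had 1 library. Counts within 1.5 times their main value, overlaps inside their main 95% interval, and coverages, ratios and ranks within 1.5 times their main value were taken as unchanged. With a score of 100 or more, 8 regions were held by asynchronous and HU cells only, 0 by HU cells only and 1 by asynchronous cells only, and 100% of HU peaks had an asynchronous partner. Mimosine peaks then numbered 7 in HOXA, from 11, and 4 in HOXD, from 7. The median ratio of HU to asynchronous width was 0.993 under that setting and also with summed widths in all regions of 3 lists, which puts it on the other side of 1 from its main value of 1.01. Limited to the 5766 best peaks of each list, the windows held 23 asynchronous, 19 mimosine and 17 HU peaks. These covered 14.9%, 10.3% and 12.5% of the windows in that order, so HU coverage was then below asynchronous coverage. Then 16 regions were held by all 3 lists, 1 by asynchronous and HU cells only, 0 by HU cells only, 3 by asynchronous cells only and 3 by asynchronous and mimosine cells only. Partners were found for 73.9% of asynchronous peaks in HU cells, 84.2% of mimosine peaks in HU cells, 100% of HU peaks in asynchronous cells and 94.1% of HU peaks in mimosine cells. HOXD then held 4 asynchronous, 2 mimosine and 1 HU peak. In the same order HOXA held 6, 5 and 6 and HOXC 4, 3 and 2, which also moved. The HOXB counts of 9, 9 and 8 were unchanged in the sense above. By construction, such a limit on number leaves out peaks and their partners. Windows widened by 50 kb were covered over 11.6% by asynchronous, 7.66% by mimosine and 11.7% by HU peaks, because the added flanks are nearly empty. A reciprocal overlap of 50% left a mimosine partner for 61.1% of asynchronous and 64.9% of HU peaks, and for mimosine peaks 66.7% had an asynchronous and 72.7% an HU partner. The cause was not tested. Merging within 1 kb left 0 regions held by HU cells only. Membership by centre, centres within 1 kb, coverage of the 4 windows together without peaks wider than 10 kb, the 8 kb limit for broad peaks and scores held at 3100 left the values they apply to unchanged in this sense. By cluster, an alternative chosen after seeing the data, leaving out peaks wider than 10 kb lowered HOXA coverage to 20.9%, 12.6% and 20.4% in asynchronous, mimosine and HU cells. The depth of the lists is not known, so a missing peak cannot be read as missing binding.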
